A study of Homo sapiens with 12 samples.

Results

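The 10 genes described here are grouped as smooth-muscle-type contractile genes and were followed across 12 libraries of A549 cells: TAGLN, TAGLN2, MYL9, ACTA2, CNN1, TPM1, TPM2, CALD1, MYLK and SLN. They are the rows of the merged gene table that carry these symbols, 10 of its 40605 rows, and each symbol stood for 1 row and 1 Ensembl identifier. The genes were picked with their values in these libraries known, so their levels across sets of libraries are given as a description, without a test.

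Smooth muscle shortens when calcium, through calmodulin, activates myosin light chain kinase, which phosphorylates the regulatory light chain of myosin and lets myosin pull on actin filaments. Tropomyosins, caldesmon and calponin lie along those filaments and tune how myosin reaches them, and transgelins cross-link them. Many of these genes are classical targets of serum response factor, which binds the CArG box with the coactivators myocardin or MRTF. Cells that are not muscle, carcinoma cells among them, use several of the same proteins in stress fibres. Sarcolipin, the product of SLN, is a small membrane protein that inhibits the calcium pump of the sarcoplasmic reticulum, and it is best known from striated muscle. SLN is thus in the group although its product is not a part of the contractile filaments.

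A549 is a human lung adenocarcinoma cell line of epithelial origin. Derivatives with a tetracycline-controlled system carried DYRK1B, a kinase of the dual-specificity DYRK family, as WT or as Y273F, a variant of it. The titles give 4 groups of 3 libraries each: WT cells given doxycycline at 2 µg/ml for 7 days, WT controls without it, Y273F cells given the same dose for 7 days, and Y273F controls without it. All came from cells cultured for 7 days after seeding at low number. Cells that carry no transgene were not part of the comparison, so an effect of doxycycline and one of induced DYRK1B cannot be told apart, and the labels do not say whether either line is a clone or a pool. Nor do they say whether replicates were separate cultures, so p-values measure the spread between these libraries, which may be technical.

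Libraries were made from transcript 3′ ends and held 2783265 to 22028624 counts on genes, so that 3 counts correspond to 0.134 to 1.07 CPM (the counts-per-million scale). CPM values here are scaled by TMM, a normalization to a common set of genes. Each tag comes from a transcript's end, so the level is not divided by gene length, and levels are compared between libraries and not between genes.

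The libraries did not sort by their titles. On the first principal component of all tested genes, which held 69.3% of the variance, the libraries numbered 2, 6 and 10 lay at 46.4, 42.4 and 44.9, and the other 9 at −4.64 or below. Their titles are WT control replicate 2, WT doxycycline replicate 3 and Y273F doxycycline replicate 1. DYRK1B, the gene put under control, measured 28.6, 4.07 and 7.80 CPM in the libraries labelled WT doxycycline, against 5.80, 3.15 and 5.64 CPM in those labelled WT control. In the libraries labelled Y273F doxycycline it measured 4.65, 4.89 and 20.0 CPM, against 2.63, 12.6 and 3.22 CPM in those labelled Y273F control. The 3 highest values belonged to libraries 4, 8 and 12, titled WT doxycycline replicate 1, Y273F control replicate 2 and Y273F doxycycline replicate 3. No source used here says whether the transgene's transcript has the end that these tags count, so DYRK1B is a limited check of the labels. Because 1 library labelled control stood among the 3 highest and 4 labelled doxycycline did not, groups are called by their labels below.

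Values are therefore given both by title and by 4 sets of library numbers, each made of numbers 4 apart: 2, 6 and 10; 1, 5 and 9; 4, 8 and 12; and 3, 7 and 11. The set 1, 5 and 9 holds WT control replicate 1, WT doxycycline replicate 2 and Y273F control replicate 3. The set 3, 7 and 11 holds WT control replicate 3, Y273F control replicate 1 and Y273F doxycycline replicate 2. No label gives these sets a condition, and none is given to them here.

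Promoter sequence was read for the members because several of them moved together across libraries. RefSeq windows of 250 bases before an annotated start (GRCh38.p14, the build named in the submitters' processing notes) were held for 7 members in 14 windows; TAGLN, MYL9 and SLN had no entry. The search was for the CArG box (exact, or with at most 1 of its 6 core bases other than A or T) and for CATTCC, the core of the MCAT motif of TEAD factors, on both strands; the motifs do not overlap in these windows. An exact CArG box was in 1 of the 14 windows, against 1.16% of 35116 windows of all genes, and the looser form was in 3 of 14, against 7.04%. CATTCC was in 3 of 14 windows, against 11.9% of all windows. Printed here are 4 windows, 5′ to 3′ on the gene's strand, with matches in capitals: those of the 3 genes with a CArG match, and that of TPM1, which had none.
ACTA2, chr10:88952774-88953023, minus strand: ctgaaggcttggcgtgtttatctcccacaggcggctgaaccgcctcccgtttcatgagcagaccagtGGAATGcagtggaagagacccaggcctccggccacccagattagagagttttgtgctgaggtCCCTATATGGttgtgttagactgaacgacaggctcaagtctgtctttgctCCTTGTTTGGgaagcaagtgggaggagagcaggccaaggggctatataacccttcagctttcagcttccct
MYLK, chr3:123620549-123620798, minus strand: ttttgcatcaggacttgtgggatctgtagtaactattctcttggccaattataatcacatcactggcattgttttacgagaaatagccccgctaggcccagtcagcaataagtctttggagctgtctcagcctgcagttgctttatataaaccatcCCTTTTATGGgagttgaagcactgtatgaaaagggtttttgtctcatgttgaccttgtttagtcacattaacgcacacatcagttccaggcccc
CALD1, chr7:134711249-134711498, plus strand: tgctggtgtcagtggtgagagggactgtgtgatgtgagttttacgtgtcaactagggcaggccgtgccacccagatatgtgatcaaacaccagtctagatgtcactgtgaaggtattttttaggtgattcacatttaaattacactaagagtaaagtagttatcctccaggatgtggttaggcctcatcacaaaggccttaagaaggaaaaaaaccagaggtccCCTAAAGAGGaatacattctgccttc
TPM1, chr15:63048239-63048488, plus strand: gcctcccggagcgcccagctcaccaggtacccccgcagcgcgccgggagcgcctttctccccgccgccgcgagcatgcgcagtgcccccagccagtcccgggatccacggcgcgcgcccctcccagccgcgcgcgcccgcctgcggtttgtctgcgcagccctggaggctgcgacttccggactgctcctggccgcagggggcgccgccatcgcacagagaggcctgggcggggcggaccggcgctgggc
The windows of ACTA2, MYLK and TPM1 precede starts that lie inside the annotated gene, and that of CALD1 precedes its first start. The ACTA2 window holds CCCTATATGG at 121 and CCTTGTTTGG at 71 bases before the start, each with 1 other base in the core, and CATTCC on the other strand further out. MYLK holds the exact box CCTTTTATGG at 94 bases, and this CALD1 window holds CCTAAAGAGG at 26 bases. A match of letters is a description of the window and not a measured site, and no binding was measured.

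In the libraries 2, 6 and 10, all 10 genes lay above the libraries 1, 5 and 9 without overlap. Of the 13047 genes that passed the filter on low counts, all 10 members among them, 27.7% did the same and 27.6% lay below without overlap, and since the genes were picked on these values nothing is read from the count. The size of the difference set the genes apart from each other: TAGLN, SLN and MYL9 differed by over 5 on the log2 scale, while TAGLN2 and MYLK differed by under 1. The median of the 10 differences in mean log2 CPM was 2.37, against −0.02 over all tested genes, of which 90% lay between −1.11 and 1.58. A difference over 1 was seen for 8 of the 10 genes and for 9.86% of all tested genes. These figures come from the same choice of genes, so nothing is read from them either.

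**Figure D1:**
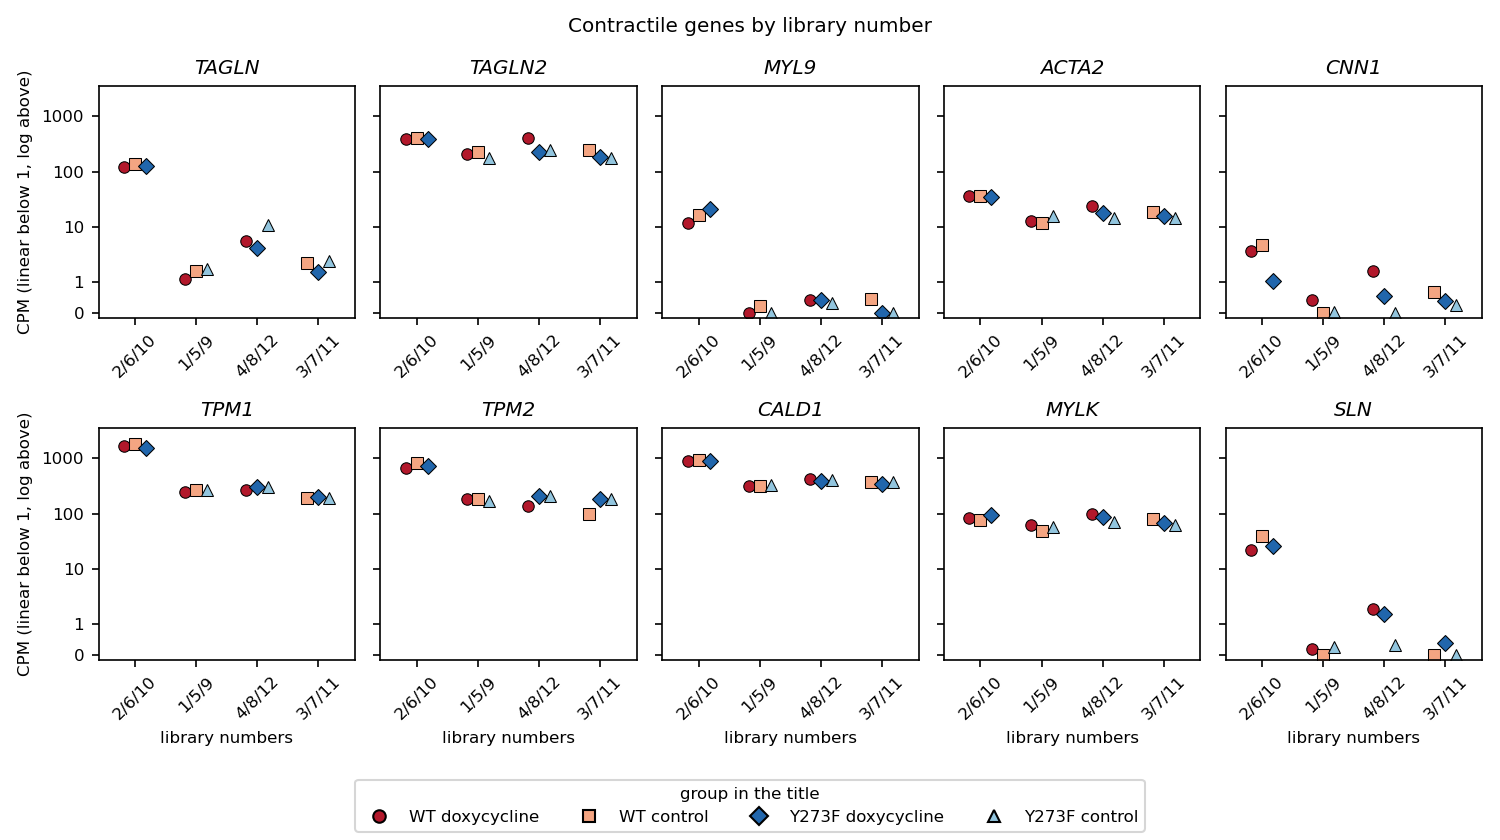
Level of each gene in each of the 12 libraries, in TMM-scaled CPM (vertical axis, linear below 1 and logarithmic above), arranged by library number along the horizontal axis; each symbol is 1 library, and its shape and colour give the group in its title. Libraries 2, 6 and 10 hold 3 different title groups and lie together at the top for TAGLN, MYL9, ACTA2, TPM1, TPM2, CALD1 and SLN.

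TAGLN encodes transgelin, also known as SM22, an actin-binding protein and an early marker of smooth muscle (chromosome 11, 117199294 to 117207465; positions are those of RefSeq genes on GRCh38.p14). It had 137, 121 and 124 CPM in libraries 2, 6 and 10, against 1.59, 1.15 and 1.74 CPM in libraries 1, 5 and 9. In libraries 4, 8 and 12 it had 5.51, 11.0 and 4.13 CPM, against 2.26, 2.38 and 1.56 CPM in libraries 3, 7 and 11. The lowest of libraries 2, 6 and 10 stood 11.0 times above the highest of the other 9, and libraries 4, 8 and 12 also lay above 3, 7 and 11 without overlap. Pooled, the counts were 1824 and 64, a ratio of 80.5 for libraries 2, 6 and 10 over 1, 5 and 9 (exact 95% interval 62.8 to 105). Such intervals cover counting error only.

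TAGLN2, the transgelin that is found outside smooth muscle as well (chromosome 1, 159918111 to 159925507), differed far less between the sets. It had 401, 393 and 394 CPM in libraries 2, 6 and 10, against 222, 210 and 179 CPM in libraries 1, 5 and 9. Library 4 reached the same level, with 397 CPM, while libraries 8 and 12 had 240 and 225 CPM, against 244, 178 and 182 CPM in libraries 3, 7 and 11. The sets 4, 8 and 12 and 3, 7 and 11 therefore overlapped for TAGLN2, and library 4 overlapped with libraries 2, 6 and 10.

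ACTA2 encodes smooth muscle alpha-actin, the actin by which myofibroblasts are recognised (chromosome 10, 88935074 to 88991337). It had 36.7, 36.6 and 35.1 CPM in libraries 2, 6 and 10, against 11.6, 13.0 and 15.8 CPM in libraries 1, 5 and 9. In libraries 4, 8 and 12 it had 23.8, 14.6 and 17.5 CPM, against 18.6, 14.3 and 15.6 CPM in libraries 3, 7 and 11. Libraries 2, 6 and 10 differed among themselves by a factor of 1.05 and lay above all others, the highest of which was library 4; the other 3 sets overlapped one another. The gene overlaps FAS and ACTA2-AS1 on the annotation, and its counts were taken by strand. The placement of tags between ACTA2 and the other actins, whose coding sequences are much alike, was not examined, so its level is uncertain to that extent.

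Myosin's light chain and its kinase behaved unlike each other. MYL9, a regulatory light chain of smooth muscle and non-muscle myosin II (chromosome 20, 36541519 to 36551447), had 16.4, 11.6 and 21.5 CPM in libraries 2, 6 and 10, against 0.227, 0 and 0 CPM in libraries 1, 5 and 9. It had 0.435, 0.332 and 0.435 CPM in libraries 4, 8 and 12, against 0.451, 0 and 0 CPM in libraries 3, 7 and 11. Outside libraries 2, 6 and 10 no library held more than 4 counts of MYL9, so the other 9 were not distinguishable at this depth. The pooled counts of 216 and 2 give a ratio of 305 for libraries 2, 6 and 10 over 1, 5 and 9, with an exact 95% interval from 83.5 to 2536.

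MYLK, the calmodulin-dependent kinase of that light chain (chromosome 3, 123610049 to 123884332), had 74.9, 82.7 and 94.5 CPM in libraries 2, 6 and 10, against 49.0, 61.9 and 56.5 CPM in libraries 1, 5 and 9. Libraries 4, 8 and 12 had 99.4, 70.4 and 86.9 CPM of MYLK, against 80.8, 63.1 and 66.7 CPM in libraries 3, 7 and 11. Its highest library was therefore number 4, and libraries 2, 6 and 10 overlapped with both 4, 8 and 12 and 3, 7 and 11. Its difference in mean log2 CPM was 0.59 for libraries 2, 6 and 10 against 1, 5 and 9, and −0.02, with a sign that changed with the scaling, against 4, 8 and 12. MYLK also shares its region with 2 annotated antisense genes, and 3.34% of its tags lay on the opposite strand, against at most 1.22% for the other 9 genes.

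The tropomyosins, which run along the groove of the actin filament, came out differently across the sets. TPM1 (chromosome 15, 63042747 to 63071915) had 1803, 1652 and 1513 CPM in libraries 2, 6 and 10, against 266, 241 and 263 CPM in libraries 1, 5 and 9. It had 270, 296 and 304 CPM in libraries 4, 8 and 12, against 192, 188 and 202 CPM in libraries 3, 7 and 11. The 4 sets formed 4 separate ranges for TPM1, in the order 2, 6 and 10, then 4, 8 and 12, then 1, 5 and 9, then 3, 7 and 11.

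TPM2 (chromosome 9, 35681993 to 35690056) had 810, 672 and 736 CPM in libraries 2, 6 and 10, against 180, 185 and 169 CPM in libraries 1, 5 and 9. It had 135, 211 and 208 CPM in libraries 4, 8 and 12, against 99.4, 182 and 184 CPM in libraries 3, 7 and 11. The lowest of libraries 2, 6 and 10 was 3.19 times the highest of the other 9, and the other 3 sets overlapped. Libraries 3 and 4, both titled WT, held the 2 lowest values of TPM2. Different tropomyosin isoforms of 1 gene are summed in these counts.

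Caldesmon and calponin both damp actomyosin on the thin filament. CALD1, which encodes caldesmon in a smooth muscle and a widespread non-muscle form (chromosome 7, 134711499 to 134970729), had 919, 905 and 905 CPM in libraries 2, 6 and 10, against 311, 319 and 327 CPM in libraries 1, 5 and 9. It had 422, 410 and 386 CPM in libraries 4, 8 and 12, against 375, 376 and 343 CPM in libraries 3, 7 and 11. No 2 sets overlapped for CALD1, and within each set the highest library was at most 1.10 times the lowest.

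CNN1, the calponin of differentiated smooth muscle (chromosome 19, 11538851 to 11550323), had 81 counts over all libraries, the fewest of the 10 genes. It had 4.73, 3.62 and 1.07 CPM in libraries 2, 6 and 10, against 0, 0.417 and 0.0447 CPM in libraries 1, 5 and 9. In libraries 4, 8 and 12 it had 1.60, 0 and 0.543 CPM, against 0.677, 0.251 and 0.391 CPM in libraries 3, 7 and 11. Library 4 lay above library 10, so libraries 2, 6 and 10 did not lie above all others, and 1.07 CPM in library 10 is 3 counts. The pooled counts of 50 and 5 give a ratio of 28.3 for libraries 2, 6 and 10 over 1, 5 and 9 (exact 95% interval 11.3 to 90.8).

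SLN (chromosome 11, 107707378 to 107712056) had 39.8, 22.1 and 26.1 CPM in libraries 2, 6 and 10, against 0, 0.209 and 0.268 CPM in libraries 1, 5 and 9. It had 1.89, 0.332 and 1.52 CPM in libraries 4, 8 and 12, against 0, 0 and 0.391 CPM in libraries 3, 7 and 11. The pooled counts were 409 and 8 for libraries 2, 6 and 10 over 1, 5 and 9, a ratio of 144 (exact 95% interval 72.6 to 337). For libraries 4, 8 and 12 over 3, 7 and 11 they were 28 and 2, a ratio of 16.1 (4.06 to 139), although library 8 overlapped with library 11. SLN was thus the member with the largest difference between those last sets, 1.93 in mean log2 CPM, followed by TAGLN with 1.52.

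Set against all other 9 libraries, libraries 2, 6 and 10 lay higher without overlap for 7 of the 10 genes, TAGLN, MYL9, ACTA2, TPM1, TPM2, CALD1 and SLN, and for 18.8% of all tested genes. The same 7 lay above libraries 4, 8 and 12 without overlap, as did 25% of all tested genes, and 0 lay below (23.1%). In that comparison 7 of 10 differed by over 1 in mean log2 CPM, as did 8.37% of all tested genes. For libraries 4, 8 and 12 over 3, 7 and 11, the genes without overlap were TAGLN, TPM1 and CALD1, 3 of 10, against 8.98% of all tested genes in that direction, and none lay lower, against 8.5% in the other direction. In that comparison the median difference of the 10 genes was 0.38, against 0.00093 over all tested genes, and only TAGLN and SLN differed by over 1, which 1.32% of all tested genes did. Libraries 3, 7 and 11 lay above 1, 5 and 9 for CALD1 and MYLK (9.67% of all tested genes) and below for TPM1 (9.98%), and 0 of the 10 differed by over 1 there (0.935%). All of these counts and medians describe genes picked with their values known. DYRK1B went another way: it had 3.15, 7.80 and 4.65 CPM in libraries 2, 6 and 10, within the range of libraries 1, 5 and 9 and 3, 7 and 11 but for library 6, and its 3 highest values were in libraries 4, 8 and 12.

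By title, the question is whether doxycycline-induced WT DYRK1B, or the Y273F variant, changed these genes. None of the 10 passed in the libraries labelled WT doxycycline against WT control, and neither did any other gene, 0% of the 13047 tested by edgeR's quasi-likelihood test at a Benjamini-Hochberg adjusted p under 0.05. All 10 members had an adjusted p of 1 there, 5 had a positive and 5 a negative fold change, and the median was −0.01, against −0.0016 over all tested genes. DESeq2 also called 0 genes, and 118 genes by edgeR and 110 by DESeq2 had an unadjusted p under 0.05, none of them a member. No member's 2 groups lay apart, against 3.2% of all tested genes.

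**Figure D2:**
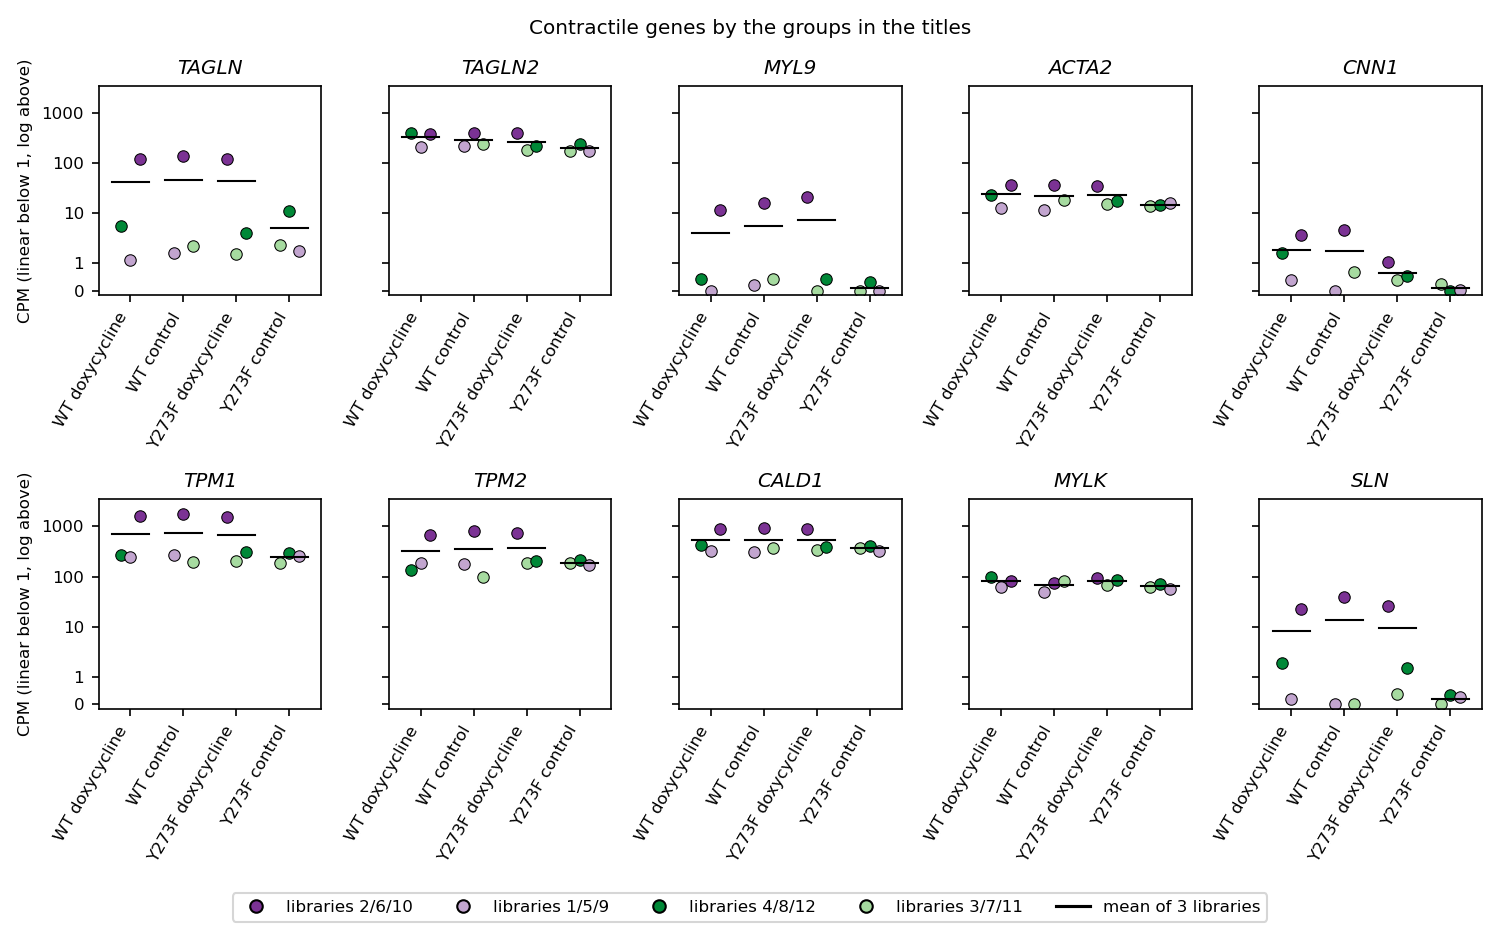
The 10 genes by title group, in TMM-scaled CPM (vertical axis, linear below 1 and logarithmic above); each point is 1 library coloured by its set of library numbers, and the bar is the mean of 3 libraries. One library of the set 2, 6 and 10 stands at the top in each group but Y273F control for TAGLN, MYL9, TPM1, TPM2, CALD1 and SLN.

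TAGLN averaged 42.5 ± 67.9 CPM in the libraries labelled WT doxycycline and 47.0 ± 78.0 CPM in those labelled WT control (SD, n = 3 each). The spread within each group exceeded its mean, because library 6 in the first and library 2 in the second held nearly all of the signal. TPM1 averaged 721 ± 807 CPM in the WT doxycycline libraries and 754 ± 910 CPM in the WT control libraries (SD, n = 3 each), with a log2 fold change of −0.06 and a 95% interval from −2.25 to 2.13. For MYLK, the steadiest member, the averages were 81.3 ± 18.8 CPM with doxycycline and 68.2 ± 16.9 CPM in controls, with a log2 fold change of 0.25 (95% interval −0.23 to 0.74). The intervals of TAGLN (−4.16 to 3.93), SLN (−4.79 to 3.45) and MYL9 (−4.60 to 3.72) leave room for large changes in either direction.

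In the libraries labelled Y273F doxycycline against Y273F control, all 10 fold changes were positive, with a median of 1.22 against 0.01 over all tested genes, and none passed. The adjusted p of each member was 0.99 by edgeR's quasi-likelihood test, and 0 of the 13047 genes (0%) were called. By DESeq2 0 genes were called as well, and 215 genes by edgeR and 214 by DESeq2 had an unadjusted p under 0.05; MYL9 was the 1 member among them by edgeR (unadjusted p = 0.047), and none was by DESeq2. TAGLN averaged 43.3 ± 70.1 CPM in the Y273F doxycycline libraries and 5.03 ± 5.15 CPM in the Y273F control libraries (SD, n = 3 each). TPM1 averaged 673 ± 729 CPM in the Y273F doxycycline libraries and 249 ± 55.1 CPM in the Y273F control libraries. None of the libraries 2, 6 and 10 is labelled Y273F control, and library 10 alone, of the Y273F doxycycline libraries, held 124 CPM of TAGLN and 1513 CPM of TPM1.

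The members CNN1 and SLN, 2 of 10, had no overlap between these Y273F groups, as did 10.9% of all tested genes. SLN had 26.1, 0.391 and 1.52 CPM in the libraries labelled Y273F doxycycline, against 0, 0.332 and 0.268 CPM in those labelled Y273F control. CNN1 had 1.07, 0.391 and 0.543 CPM in the Y273F doxycycline libraries, against 0.251, 0 and 0.0447 CPM in the Y273F control libraries, which is 10 counts against 3 (pooled ratio 6.50, exact 95% interval 1.67 to 36.7). Pooled intervals here cover counting error only. With the spread between libraries, the log2 fold change of CNN1 was 2.47 (95% interval −1.19 to 6.13). MYL9 rests on 64 counts against 1, a pooled ratio of 125 with an interval of 21.6 to 5002. Of those 64 counts, 60 came from library 10.

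The difference between the WT effect and the Y273F effect, tested as an interaction, was called for no member and for 0% of the 13047 genes, with an adjusted p of 1 for each member by edgeR's quasi-likelihood test. All 10 differences were negative (median −1.31, against −0.02 over all tested genes), from −0.13 for MYLK upward in size, and the 95% interval of each included 0. By DESeq2 0 genes were called too, with 160 genes by edgeR and 141 by DESeq2 at an unadjusted p under 0.05 and no member among either. Between the libraries labelled Y273F control and WT control the median of the members was −1.27, against −0.03 over all tested genes, all 10 were negative, and none passed (adjusted p = 0.991 for each, by edgeR's quasi-likelihood test). That comparison called 0% of genes by edgeR and 0 by DESeq2. An unadjusted p under 0.05 was given to 445 genes by edgeR and 471 by DESeq2, among them 1 member by each tool. By edgeR's quasi-likelihood test it was CNN1 (unadjusted p = 0.029), on 3 counts against 27. Of those 27 counts, 21 came from library 2. No member's 2 groups lay apart in that comparison, against 10.9% of all tested genes. These comparisons share their control libraries, so the matching signs are not separate observations.

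**Figure D3:**
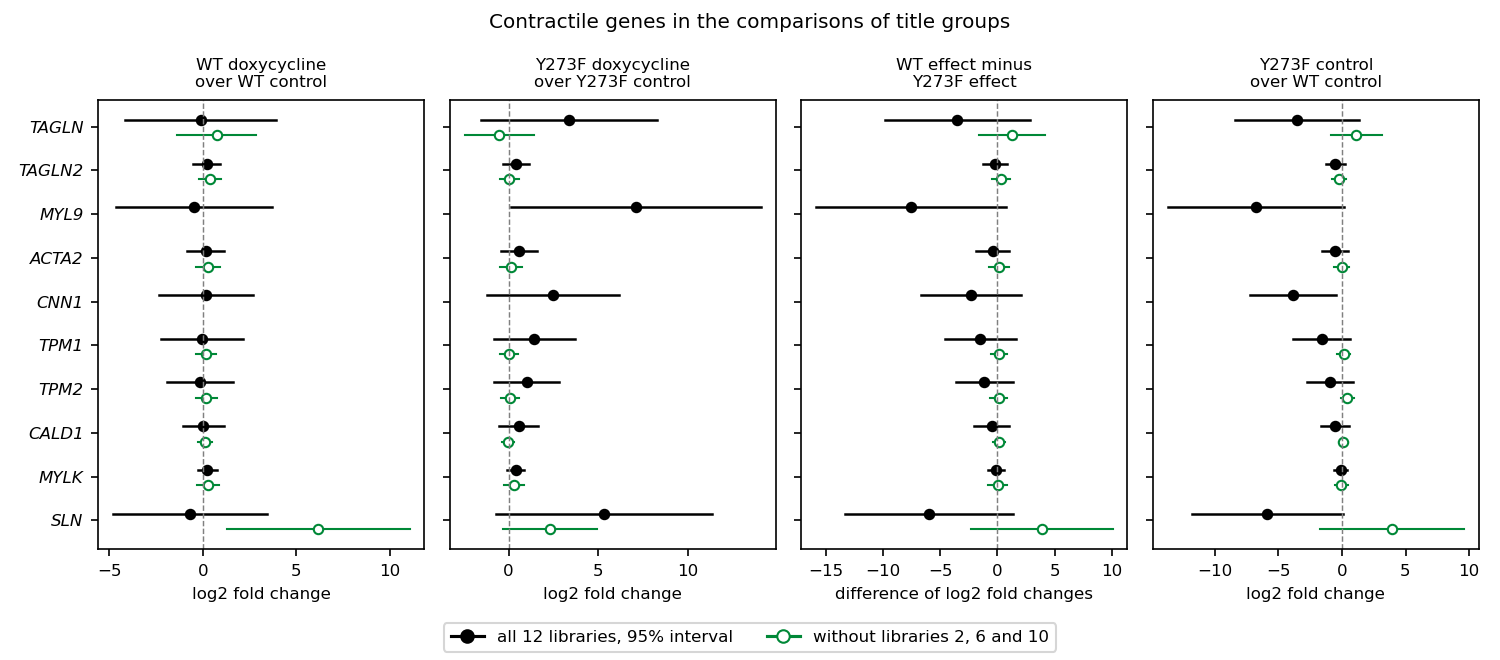
Log2 fold change of each gene in the 4 comparisons of title groups, with its 95% interval from edgeR's quasi-likelihood fit; filled points use all 12 libraries and open points leave out libraries 2, 6 and 10, where MYL9 and CNN1 did not pass the filter. Intervals are wide for TAGLN, MYL9 and SLN with all libraries; the open points of SLN other than in the Y273F doxycycline comparison rest on 2 WT control libraries listed at 0 and depend on the prior count.

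Without libraries 2, 6 and 10, 8 of the 10 genes passed the filter and 0 of 13126 genes were called in any of the 4 comparisons. The medians of those 8 were then 0.29 for WT doxycycline over WT control, 0.05 for Y273F doxycycline over Y273F control, 0.13 for the difference of the effects and 0.11 for Y273F control over WT control. TAGLN changed sign in all 4 comparisons; in the Y273F doxycycline comparison its log2 fold change was −0.51, against 3.38 with all libraries. The 2 genes that no longer passed, MYL9 and CNN1, had passed only with the libraries in which they were high, and their unadjusted p-values above rest on those libraries.

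Other genes of the same machinery were counted from lists chosen with earlier results of these data known. None was called in any title comparison, in any list. Of 24 other smooth muscle contractile genes, 15 could be tested, and 11 of the 15 lay higher in libraries 2, 6 and 10 than in 1, 5 and 9 without overlap and 0 lower, with a median difference of 1.26; over all tested genes 27.7% lay higher and 27.6% lower. The 4 of them with the highest mean CPM were MYL6, the essential light chain of myosin, CSRP1, a LIM protein of stress fibres, LPP, a focal adhesion protein, and CNN2, a calponin of non-muscle cells. CSRP1 had 403, 389 and 389 CPM in libraries 2, 6 and 10, against 93.3, 98.3 and 115 CPM in libraries 1, 5 and 9. In libraries 4, 8 and 12 CSRP1 had 131, 127 and 144 CPM, against 88.9, 100 and 103 CPM in libraries 3, 7 and 11. CNN2 had 106, 89.3 and 117 CPM in libraries 2, 6 and 10 and lay between 37.7 and 51.6 CPM in the other 9, unlike CNN1, which was near its floor there.

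Several defining genes of mature smooth muscle were at or near 0, while others were counted in every library; those at or near 0 were named after their values were seen. DES, which encodes the muscle intermediate filament desmin, and ITGA8, an integrin subunit, were at 0 in all 12 libraries. MYH11, the smooth muscle myosin heavy chain, was at 0 in libraries 2, 6 and 10 and reached at most 0.376 CPM elsewhere, and LMOD1, an actin nucleator of smooth muscle, reached at most 0.114 CPM. ACTG2, the gamma-actin of enteric smooth muscle, was counted in library 6 alone, at 1.67 CPM. MYOCD, the gene of myocardin, had 1.13, 1.11 and 0.716 CPM in libraries 2, 6 and 10 and at most 0.627 CPM in the others. SMTN, the gene of smoothelin, had 11.0, 14.6 and 10.7 CPM in libraries 2, 6 and 10, against 5.00, 3.76 and 3.76 CPM in libraries 1, 5 and 9, without overlap. SYNM and SYNPO2, which encode the filament protein synemin and the actin-binding synaptopodin 2, lay between 11.6 and 21.2 CPM and between 5.64 and 11.6 CPM over all libraries.

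The 24 genes of non-muscle actomyosin and stress fibres could all be tested, and 21 lay higher in libraries 2, 6 and 10 than in 1, 5 and 9 (27.7% of all tested genes) and 0 lower (27.6%), with a median difference of 0.51. That median was below the 2.37 of the 10 contractile genes, while single differences in the list reached 2.42. ACTG1, the cytoplasmic gamma-actin, had 7804, 7171 and 7450.3 CPM in libraries 2, 6 and 10, against 5572, 5210.2 and 5524 CPM in libraries 1, 5 and 9. Thymosin beta-10, encoded by TMSB10 and a binder of actin monomers, overlapped, with 3688, 3106 and 3336 CPM against 3529.6, 3044.5 and 2847 CPM in those sets. In libraries 4, 8 and 12 over 3, 7 and 11, 13 of the 24 lay higher and 0 lower, with a median difference of 0.18, against 8.98% and 8.5% of all tested genes.

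Of the 20 regulators and targets of serum response factor, 17 could be tested, and 8 lay higher and 5 lower in libraries 2, 6 and 10 than in 1, 5 and 9 (median 0.10), against 27.7% and 27.6% of all tested genes. SRF itself had 91.6, 69.2 and 86.3 CPM in libraries 2, 6 and 10, against 39.5, 46.0 and 45.3 CPM in libraries 1, 5 and 9. It had 58.9, 54.1 and 53.6 CPM in libraries 4, 8 and 12, against 44.2, 41.5 and 47.9 CPM in libraries 3, 7 and 11. SRF thus lay higher without overlap in both of these comparisons. ELK3, an ETS factor that partners SRF, had 119, 118 and 117 CPM in libraries 2, 6 and 10, against 64.7, 56.3 and 54.0 CPM in libraries 1, 5 and 9. The others of the 8 that lay higher than in libraries 1, 5 and 9 were ANKRD1, CCN2, JUNB, CCN1, MRTFA and FHOD1. Differences in mean log2 CPM for these were 3.97, 1.91, 1.63, 1.00, 0.76 and 0.51. The 5 that lay lower there were FOS, EGR1, ELK1, IER2 and ELK4. Their differences in mean log2 CPM were −1.71, −0.98, −0.74, −0.64 and −0.46. ARHGAP1 overlapped, with a difference of −0.05. In the comparison of libraries 4, 8 and 12 with 3, 7 and 11, 3 of the 17 lay higher and 1 lower, against 8.98% and 8.5% of all tested genes.

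Among the calcium pumps that sarcolipin can bind, ATP2A2, the calcium pump of the endoplasmic reticulum found in most cells, had 391, 419 and 425 CPM in libraries 2, 6 and 10, against 371, 410 and 428 CPM in libraries 1, 5 and 9, so these sets overlapped. Libraries 4, 8 and 12 had 373, 382 and 366 CPM of ATP2A2, below libraries 2, 6 and 10 without overlap, as for 25% of all tested genes. Of the 13 pumps and small regulators listed, 12 were in the table and 3 could be tested, ATP2A2, CALR and ATP2A3. Of these 3, 0 lay higher and 0 lower in libraries 2, 6 and 10 than in 1, 5 and 9, against 27.7% and 27.6% of all tested genes. With 3 genes nothing is read from this. PLN, which encodes the related inhibitor phospholamban, and the calsequestrin genes CASQ1 and CASQ2 were at 0 in all 12 libraries; they were named for being at 0.

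**Figure D4:**
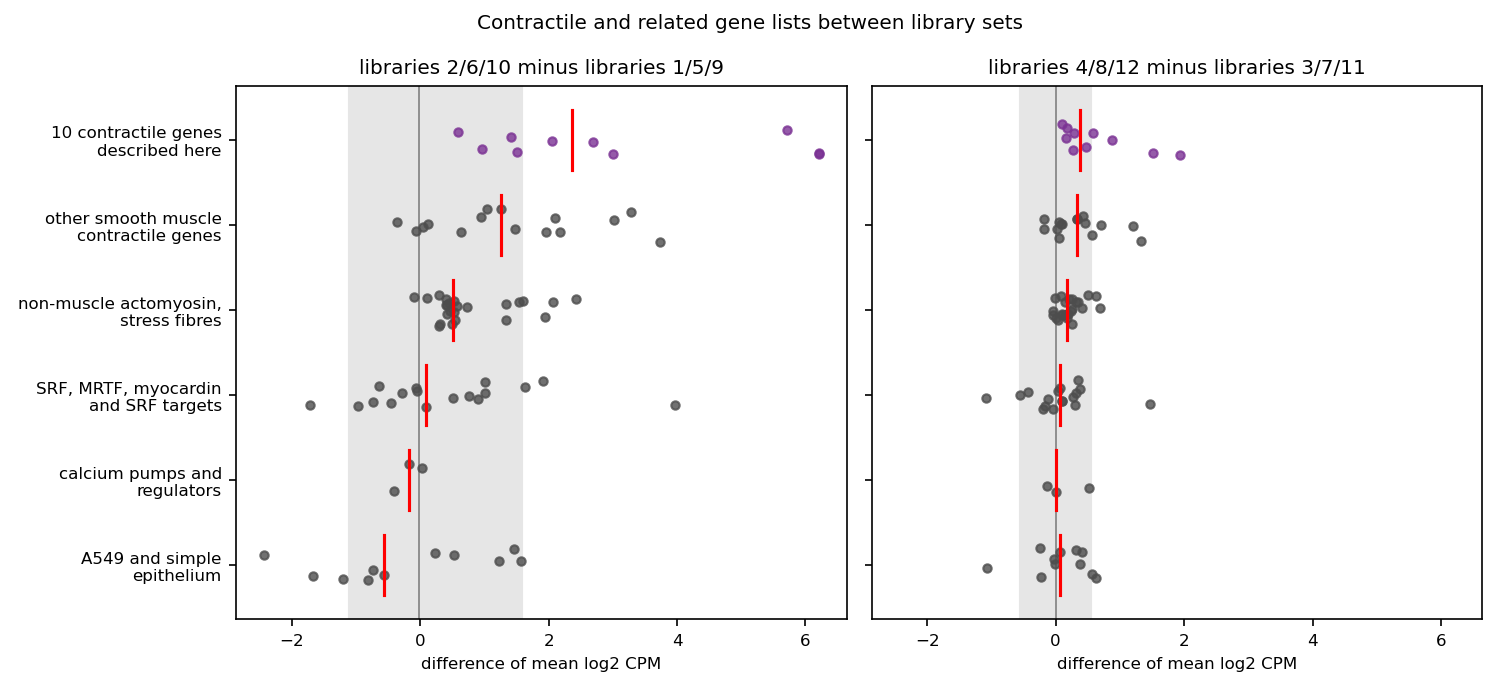
Difference in mean log2 CPM between sets of libraries for the 10 contractile genes and 5 related lists (tested genes only); each point is 1 gene, the red bar is the list's median, and the grey band holds 90% of all tested genes. In libraries 2, 6 and 10 minus 1, 5 and 9 the medians are 2.37 for the 10 genes, 1.26 for other smooth muscle genes and 0.51 for non-muscle actomyosin genes; in libraries 4, 8 and 12 minus 3, 7 and 11 the median of the 10 genes is 0.38. The 10 genes were picked with these values known, and the lists with earlier results known, so the medians are a description.

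Markers of other cell types moved with the contractile genes in part, and bulk libraries cannot tell a change in the share of cells of a type from a change in RNA per cell. The summed level of 10 pericyte and fibroblast markers was 155 to 218 CPM in libraries 2, 6 and 10, against 27.1 to 33.1 CPM in libraries 1, 5 and 9. It was 41.4 to 47.8 CPM in libraries 4, 8 and 12, against 29.8 to 36.9 CPM in libraries 3, 7 and 11. Between those sets COL1A1 lay higher (difference 1.11) and LUM lower (−1.28), each without overlap. Over all tested genes 8.98% lay higher and 8.5% lower. NOTCH3 overlapped there, with −0.48. Of these 10 markers, 3 could be tested. COL1A1, a chain of type I collagen, and LUM, the matrix proteoglycan lumican, lay higher in libraries 2, 6 and 10 than in 1, 5 and 9 without overlap. NOTCH3, a receptor of mural cells, overlapped. Over all tested genes 27.7% lay higher and 27.6% lower in that comparison. COL1A1 alone had 197, 136 and 163 CPM in libraries 2, 6 and 10, against 22.6, 18.5 and 22.6 CPM in libraries 1, 5 and 9. It thus made up most of the sum in libraries 2, 6 and 10. The markers that could not be tested, PDGFRB, PDGFRA, RGS5, CSPG4, COL3A1, DCN and FAP, reached at most 1.07 CPM in any library.

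The sum of 8 smooth muscle markers was 32.2 to 50.1 CPM in libraries 2, 6 and 10, against 26.2 to 32.8 CPM in libraries 1, 5 and 9, and the sets overlapped. It was 24.8 to 25.9 CPM in libraries 4, 8 and 12, against 20.9 to 28.0 CPM in libraries 3, 7 and 11. Of 10 striated muscle markers, the 5 at 0 in all libraries were MYOD1, MYOG, ACTC1, TNNT2 and TNNI1, and the sum, nearly all of it TNNT1, was 72.5 to 94.1 CPM in libraries 2, 6 and 10, against 87.9 to 99.3 CPM in libraries 1, 5 and 9. The part of other cell types in the results was not tested.

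The markers of A549 cells and simple epithelium, which check the labelled cell type, were abundant as a sum in every library. Their sum over 11 genes was 21764 to 26119 CPM in libraries 2, 6 and 10, against 21209 to 21559 CPM in libraries 1, 5 and 9. Within the list, 5 lay higher and 6 lower without overlap in libraries 2, 6 and 10, against 27.7% and 27.6% of all tested genes. KRT18, a keratin of simple epithelium, had 8547.5, 8097 and 6227 CPM in libraries 2, 6 and 10, against 2728, 2722 and 2772 CPM in libraries 1, 5 and 9. AKR1C2, an aldo-keto reductase abundant in A549 cells, had 1465, 1415 and 1534 CPM in libraries 2, 6 and 10, against 4844, 4630.2 and 4576 CPM in libraries 1, 5 and 9. EPCAM and CDH1 were also among the 6 lower. EPCAM had 6.75, 5.43 and 4.65 CPM in libraries 2, 6 and 10, against 29.8, 32.45 and 30.9 CPM in libraries 1, 5 and 9. It was low in libraries 4, 8 and 12 as well, at 4.79, 7.31 and 8.37 CPM. CDH1 had 24.5, 30.5 and 25.4 CPM in libraries 2, 6 and 10, against 44.1, 47.7 and 50.4 CPM in libraries 1, 5 and 9. Unlike EPCAM, CDH1 was not low in libraries 4, 8 and 12, at 60.5, 55.1 and 56.2 CPM. For libraries 4, 8 and 12 over 3, 7 and 11, 4 of the 11 genes lay higher and 2 lower without overlap. Over all tested genes these shares were 8.98% and 8.5%.

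The genes whose pattern over the 12 libraries was closest to that of TAGLN and of SLN were looked up by the root mean square difference of centred log2 CPM, among tested genes that average at least 5 CPM. Among the 5 closest to TAGLN were ITGA11, an integrin subunit that binds collagen, at 0.60, CCBE1 at 0.63 and CPA4, a carboxypeptidase, at 0.78. The same 3 genes were among the 5 closest to SLN, CPA4 at 0.69, ITGA11 at 0.88 and CCBE1 at 0.94. Among the members, MYL9 was nearest to TAGLN, at 0.63, and MYLK farthest, at 2.33. ITGA11 had 41.9, 30.1 and 31.5 CPM in libraries 2, 6 and 10, against 0.909, 0.939 and 0.760 CPM in libraries 1, 5 and 9. In libraries 4, 8 and 12 ITGA11 had 2.90, 1.99 and 1.85 CPM, against 0.677, 1.25 and 0.391 CPM in libraries 3, 7 and 11. As with TAGLN, libraries 4, 8 and 12 lay between the highest set and the other sets for ITGA11. This gene was picked for its likeness to TAGLN over these libraries, so nothing is read from the shared order.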

How the data were processed

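Tags from transcript 3′ ends were counted in 12 libraries (QuantSeq FWD V2, per the labels' protocols). The deposited values are raw read counts per gene: 1 merged table by gene symbol and per-library tables with columns by strand, which also list reads on no gene. The submitters' processing notes name STAR and the build GRCh38.p14, without versions, filters or trimming. The merged rows of all 10 members, and each of the 40605 rows, equalled a row of the transcript-strand counts; 1212 rows have a symbol used more than once and were kept apart. Reads on no gene were 35.5% to 43.2% of a library and stayed out of totals, and 7.25% to 8.07% of gene reads lay on the opposite strand. The labels give 1 batch for all libraries, and the first library is labelled polyA RNA where the others are labelled total RNA.

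All 12 libraries and 4 title groups entered 1 model in edgeR 4.0.16 (R 4.3.3; TMM, filterByExpr with a minimum count of 10, quasi-likelihood test), adjusted by the Benjamini-Hochberg method over the 13047 genes kept. A gene was called at an adjusted p under 0.05. CPM were computed from the counts with TMM factors, and log2 CPM with a prior count of 2. Ratios of pooled counts have exact 95% intervals, which cover counting error only. Alternatives were DESeq2 1.42.0, its size factors, no filter, a replicate block, the per-library counts, leaving out libraries 2, 6 and 10, and leaving out each library. The fitting steps were tested on simulated counts.

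The members and gene lists were chosen with earlier results of these data known. Named are the 10 members, DYRK1B, up to 4 tested genes of each list with the highest mean CPM, and those of the 5 genes most like TAGLN and SLN that can be given (others are not reported here); list genes at or near 0 in all libraries and further genes were named after their values were seen.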

Additional observations from a re-analysis of the deposited data

How the results depend on the processing

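The difference between libraries 2, 6 and 10 and libraries 1, 5 and 9 kept its direction for all 10 members when 1 library was left out, without TMM factors, with DESeq2's size factors and with the per-library counts. These sets do not overlap for any member, so at a given scaling leaving out 1 library could not turn the difference. The per-library counts of the members equal the merged ones. Nothing is read from the kept direction, since the genes were picked on these values. Differences between the other sets changed sign in a few of these (4 for libraries 4, 8 and 12 over 3, 7 and 11, in ACTA2, CNN1 and TPM2; 8 for 3, 7 and 11 over 1, 5 and 9, in TAGLN2, MYL9, TPM2 and SLN; 4 for 2, 6 and 10 over 4, 8 and 12, all in MYLK), and each was smaller than the spread within sets. No member was called in any title comparison under any alternative. All genes called by edgeR numbered 0 under each alternative but 3: with 1 library left out the count ranged from 0 to 1 for Y273F doxycycline over Y273F control, for the difference of the effects and for Y273F control over WT control. Those genes, named after their values were seen, were SLX1B without Y273F control replicate 2, RPL32P18 without Y273F doxycycline replicate 2 and FKBP1C without Y273F doxycycline replicate 3. Correlations of same-numbered deviations between groups ran from −0.664 to 0.253. They cannot decide whether cultures were paired by replicate number, since libraries 2, 6 and 10, far from the rest, carry different replicate numbers. With the replicate as a block 0 members and 0 genes were called. WT doxycycline fold changes then turned to 1.35 for TAGLN, 0.067 for MYL9, 0.00108 for TPM1 and 0.033 for TPM2 (log2).

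Without libraries 2, 6 and 10, fold changes that turned were 0.74 for TAGLN, 0.16 for TPM1, 0.19 for TPM2 and 6.18 for SLN in WT doxycycline over WT control, and −0.51 for TAGLN and −0.025 for CALD1 in Y273F doxycycline over Y273F control. For the difference of the effects they were 1.25 for TAGLN, 0.34 for TAGLN2, 0.12 for ACTA2, 0.13 for TPM1, 0.12 for TPM2, 0.13 for CALD1, 0.016 for MYLK and 3.89 for SLN. For Y273F control over WT control they were 1.13 for TAGLN, 0.12 for TPM1, 0.42 for TPM2, 0.11 for CALD1 and 3.95 for SLN. The values of SLN rest on 2 WT control libraries listed at 0, depend on the prior count and are no bound.

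With 1 library left out, the WT doxycycline fold change ranged from −3.83 to 4.45 for TAGLN, −4.70 to 3.48 for MYL9, −0.255 to 0.69 for ACTA2, −0.73 to 2.40 for CNN1, −1.55 to 1.65 for TPM1, −1.17 to 1.24 for TPM2, −0.525 to 0.68 for CALD1 and −3.67 to 9.07 for SLN. That of Y273F doxycycline ranged from −0.37 to 4.36 for TAGLN and −0.027 to 0.79 for CALD1. Without Y273F doxycycline replicate 1, which is library 10, that fold change kept its sign but was 0.022 for TPM1, 0.065 for TPM2, 0.033 for TAGLN2, 0.147 for ACTA2, 2.29 for SLN and 2.50 for MYL9, against 1.43, 1.00, 0.42, 0.57, 5.31 and 7.09 with all libraries. The difference of the effects ranged from −7.20 to 1.05 for TAGLN, −0.42 to 0.17 for TAGLN2, −0.81 to 0.12 for ACTA2, −2.96 to 0.22 for TPM1, −2.16 to 0.24 for TPM2, −1.06 to 0.12 for CALD1, −0.325 to 0.032 for MYLK and −8.96 to 3.74 for SLN. Y273F control over WT control ranged from −4.51 to 1.00 for TAGLN, −2.05 to 0.12 for TPM1, −1.39 to 0.42 for TPM2, −0.80 to 0.11 for CALD1, −0.30 to 0.038 for MYLK and −6.80 to 3.84 for SLN. The cause of these turns was not tested. Depth limits MYL9, CNN1 and SLN, which held few or no counts outside libraries 2, 6 and 10.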
